A study of Caenorhabditis elegans with 16 samples.

Results

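The comparison described here sets *C. elegans* adults mutant for 2 transcription factors, PQM-1 and ETS-4, against the wild type (wt) after 24 h at 4 °C, over all genes of the deposited count table. It takes 4 of the 16 libraries of the series: 2 of *pqm-1; ets-4* animals, which carry *pqm-1(ok485)* on chromosome II and *ets-4(rrr16)* on X and are called the double mutant below, and 2 of wt (N2), matched by replicate number. All 4 libraries are poly-A RNA-seq of whole worms at day 1 of adulthood, grown at 20 °C and moved to 4 °C by way of 2 h at 10 °C, with about 1000 animals in each. The other libraries at 4 °C are from *ets-4(rrr16) X* and *daf-16; ets-4* animals, and the same 4 strains were also collected at 20 °C. Of 20447 genes in the table, 14571 had enough counts to be tested in the 8 libraries at 4 °C. The 4 libraries compared held 36359584 to 43039567 counts. A *pqm-1* single mutant was not analysed here, so what the loss of PQM-1 alone does cannot be read from these data.

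ETS-4 is an ETS-domain factor whose mRNA is degraded by the ribonuclease REGE-1 in the intestine, the organ in which worms store fat. PQM-1 is a zinc finger factor that shares many target genes with the FOXO factor DAF-16 and takes part in stress responses and yolk and fat metabolism. The study concerns how *ets-4* mutants survive the cold, and the double mutant addresses the part that PQM-1 has in it. The libraries show which transcripts differed from wt in animals that carry both mutations, and protein was not measured here.

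The mutated genes were examined first. *ets-4* (WBGene00017687, WBcel235 chromosome X, 6518883 to 6522667, plus strand) was at 11.6 and 11.7 CPM (counts per 1000000, after TMM scaling) in the double mutant (replicates 1 and 2), against 60.8 and 85.1 CPM in wt. The log2 fold change was -2.62 ± 0.21 (approximate SE, n = 2 per strain; edgeR adjusted p = 0.00104). The level was thus well below wt in both libraries, but not 0. *pqm-1* (WBGene00004096, chromosome II, 11150391 to 11152595, minus strand) was at 151 and 141 CPM in the double mutant and 189 and 255 CPM in wt, a change of -0.60 ± 0.12 (edgeR adjusted p = 0.0101, but 0.0599 without wt replicate 2). The *pqm-1* transcript was therefore still abundant in the mutant, and the counts per gene do not show which part of it was left. *daf-16*, the FOXO factor downstream of insulin signalling, is not mutated in either strain by the genotype labels. It did not pass the test, with 207 and 187 CPM in the double mutant and 223 and 197 CPM in wt (-0.10, edgeR adjusted p = 0.275).

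**Figure D1:**
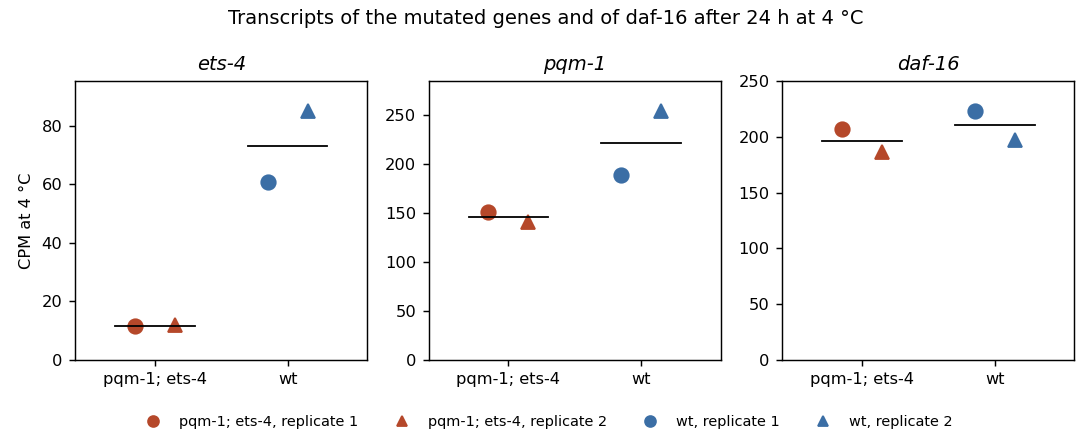
Level of *ets-4*, *pqm-1* and *daf-16* in CPM (linear axes from 0) in the double mutant and wt at 4 °C, with one symbol per library and a bar at the mean of each strain. *ets-4* sits at 11.6 and 11.7 CPM in the double mutant, far below the 60.8 and 85.1 CPM of wt, while the *daf-16* values of the strains overlap.

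In the paired fit, which takes the replicate number as a term, edgeR called 3049 genes higher in the double mutant (20.9% of those tested) and 2930 lower (20.1%). The median log2 fold change was 0.95 among the genes called higher and -0.26 among those called lower, so the falls were mostly small. A change of at least 2-fold was fitted for 47.4% of the genes called higher and for 4.06% of those called lower. A second criterion, a 2-fold change in both same-numbered pairs after adding 8 to the scaled counts, was met by 697 genes upwards (3.41% of 20447) and 53 downwards (0.259%). Both criteria together were met by 686 genes upwards (4.71% of 14571) and 49 downwards (0.336%).

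The pairs of libraries differed in size of effect. Replicate 1 alone gave 855 genes at least 2-fold higher and 154 lower, and replicate 2 alone gave 2497 higher and 139 lower. Of the 686 genes higher by both criteria, 646 were higher in replicate 2 of the double mutant than in its replicate 1, beside 7040 of all 14571 genes tested, and 362 remained called after wt replicate 2 was left out. Of the 49 lower genes, 21 were higher in replicate 2 of the double mutant, and 40 to 46 remained called when any 1 library was left out. Without the pairing the spread between replicates was too large for most calls, and only 30 genes higher (0.206%) and 17 lower (0.117%) passed the test, with 4492 genes at an unadjusted p under 0.05. Leaving out wt replicate 2 with the pairing kept gave 1085 higher and 1050 lower, and leaving out replicate 2 of the double mutant gave 2076 and 1080. Under library totals alone, without TMM factors, 68.5% of all calls were higher, against 51% with them.

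**Figure D2:**
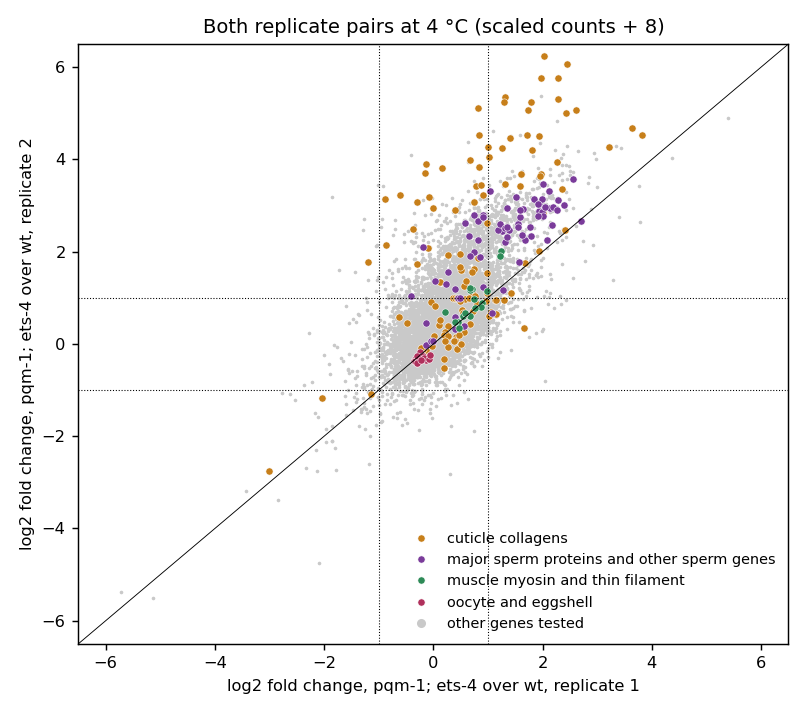
Log2 fold change of the double mutant over wt at 4 °C in the pair of replicate 1 (x axis) and of replicate 2 (y axis), from scaled counts plus 8, with one point per gene tested, dotted lines at 2-fold and a solid line of equality. Cuticle collagens (orange) and sperm genes (purple) lie mostly above the line, muscle genes (green) near it on the side of a rise, and oocyte and eggshell genes (red) close to 0 on the side of a fall; 2497 genes rise at least 2-fold in replicate 2 and 855 in replicate 1.

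Of the genes called with the pairing, 47 were also called without it, a set formed after the values were seen. None of them is a collagen or a sperm gene. *let-805*, which codes for myotactin, a transmembrane protein that ties body wall muscle to the epidermis, was at 101 and 104 CPM in the double mutant and 37.1 and 32.7 CPM in wt (1.54 ± 0.07, edgeR adjusted p = 2.67e-05 and 0.00223 without the pairing). *unc-52*, the basement membrane perlecan under the same muscle, was at 129 and 135 CPM in the double mutant and 68.0 and 74.2 CPM in wt (0.89 ± 0.06, edgeR adjusted p = 0.000155). *tnc-2*, a troponin C, the calcium sensor of the thin filament, had 24.3 and 28.3 CPM in the double mutant against 12.2 and 11.2 CPM in wt (1.16 ± 0.10, edgeR adjusted p = 0.000258). For each of these 3 genes of muscle and its attachment, both mutant libraries lay above both wt libraries, and the strains differed by more than replicates did.

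Other genes in that set act in cells of many kinds. *cls-3*, of the CLASP family of microtubule-binding proteins, had 103 and 77.9 CPM in the double mutant and 27.6 and 31.3 CPM in wt (1.60 ± 0.14, edgeR adjusted p = 0.00104). *ist-1*, the insulin receptor substrate homologue, had 17.5 and 15.1 CPM in the double mutant and 6.74 and 6.59 CPM in wt (1.28 ± 0.11, edgeR adjusted p = 0.000277). *egl-13*, a SOX transcription factor, and *catp-7*, a cation-transporting ATPase, rose by 1.19 and 0.88 on the log2 scale, and *shn-1*, the synaptic scaffold Shank, by 0.96. Among genes known only by a sequence name, T22F3.11 was at 19.6 and 16.1 CPM in the double mutant and 0.762 and 0.885 CPM in wt (4.45 ± 0.54, edgeR adjusted p = 0.00522), though its adjusted p was 0.0738 without wt replicate 2. It was the only one of the 30 higher genes to lose its call when 1 of the 4 libraries was left out, and the 17 lower genes kept theirs each time.

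The lower genes called with and without the pairing included enzymes and carriers of lipid and energy metabolism. *ucp-4*, a mitochondrial carrier of the uncoupling protein family, was at 5.24 and 5.55 CPM in the double mutant and 20.0 and 21.5 CPM in wt (-1.95 ± 0.10, edgeR adjusted p = 2.89e-05). *elo-2*, an elongase that extends palmitic acid, was at 24.1 and 23.9 CPM in the double mutant and 62.2 and 70.5 CPM in wt (-1.48 ± 0.07, edgeR adjusted p = 2.67e-05). *faah-2*, a fatty acid amide hydrolase, was at 416 and 427 CPM in the double mutant and 775 and 643 CPM in wt (-0.75 ± 0.08, edgeR adjusted p = 0.000587). In each case the strains were clear of each other, and the 2 mutant libraries were nearly equal. *nlt-1*, related to lipid transfer proteins, fell by 1.25 on the log2 scale.

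A kinase and antimicrobial proteins were in the same set. *cdk-5*, a cyclin-dependent kinase of neurons, had 18.4 and 17.8 CPM in the double mutant and 52.6 and 53.6 CPM in wt, a fall of 1.56 ± 0.06 (edgeR adjusted p = 8.25e-06, and 0.000766 without the pairing). *wdfy-3*, of the family of FYVE domain proteins that act in selective autophagy, had 24.8 and 22.6 CPM in the double mutant and 47.7 and 46.3 CPM in wt (a fall of 1.00 ± 0.06, edgeR adjusted p = 5.53e-05). The saposin-like genes *spp-3* and *spp-1*, whose family holds pore-forming antimicrobial proteins, also fell. *spp-3* was at 35.6 and 26.6 CPM in the double mutant and 94.2 and 102 CPM in wt (-1.68 ± 0.12, edgeR adjusted p = 0.00039), and *spp-1* at 13.5 and 12.4 CPM in the double mutant and 22.9 and 22.2 CPM in wt (-0.81 ± 0.08, edgeR adjusted p = 0.000465). *acy-4*, an adenylyl cyclase, and *sar-1*, the small GTPase that starts the coating of vesicles leaving the endoplasmic reticulum, fell by 0.91 and 0.47.

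The largest falls by both criteria, among genes with a mean of at least 1 CPM, were led by genes with at least 4.31 CPM in wt and under 1 CPM in the double mutant. *ech-9*, of the enoyl-CoA hydratase family of fatty acid oxidation enzymes, had 0 and 0.073 CPM in the double mutant and 11.5 and 12.2 CPM in wt (edgeR adjusted p = 0.000628, and 0.0609 without the pairing). That is 3 counts in the double mutant against 847 in wt, a ratio of 0.00307 with a 95% counting interval of 0.000633 to 0.00902. *asp-12*, an aspartyl protease, was at 0.412 and 0.706 CPM in the double mutant and 22.2 and 45.4 CPM in wt (-5.89 ± 0.21, edgeR adjusted p = 8.25e-06, and 0.0209 without the pairing). *clec-52*, a C-type lectin, a family active in immune defence, had 0.194 and 0.316 CPM in the double mutant and 4.31 and 4.99 CPM in wt (-4.19 ± 0.28, edgeR adjusted p = 0.000121). No library of the double mutant came near a wt library for these 3 genes.

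The cuticle genes *col-165* and *cut-3* fell as well, the first a collagen and the second a cuticlin. *col-165* was at 0.243 and 0.122 CPM in the double mutant and 3.57 and 2.17 CPM in wt (-4.04 ± 0.43, edgeR adjusted p = 0.000542), and *cut-3* at 0.558 and 0.073 CPM in the double mutant and 5.48 and 2.92 CPM in wt (-3.82 ± 0.44, edgeR adjusted p = 0.001). *mtre-1*, C31B8.7 and *fipr-24*, the last from a family induced by fungal infection, fell by 2.68, 2.48 and 2.41 on the log2 scale from wt levels of 1.31 to 2.81 CPM. *dct-7*, named as a DAF-16-controlled gene, had 1.63 and 0.341 CPM in the double mutant and 6.24 and 3.75 CPM in wt (-2.67 ± 0.46, edgeR adjusted p = 0.00494), and its adjusted p was 0.0707 without replicate 2 of the double mutant. *ets-4* itself was the remaining gene of the 10.

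**Figure D3:**
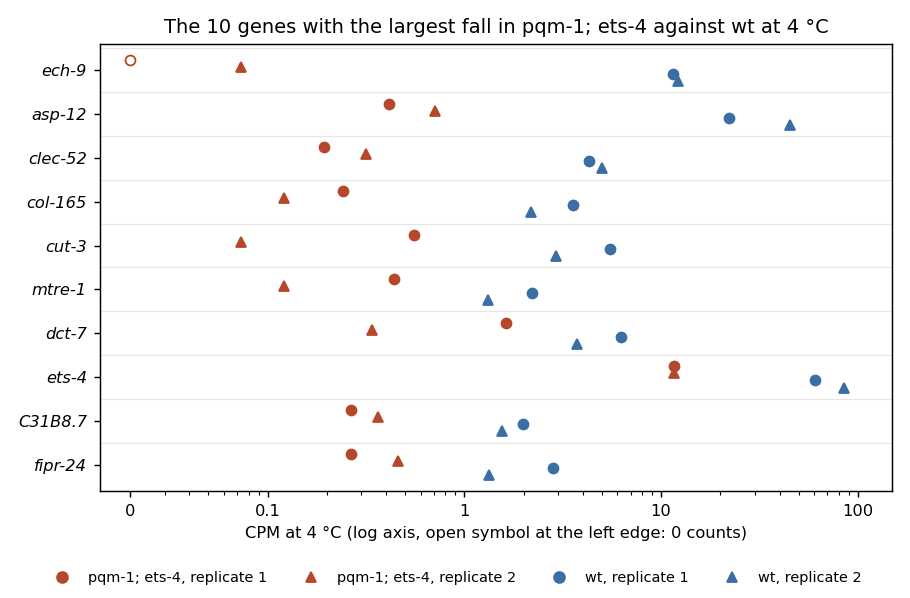
Level in CPM (log axis, open symbol at the left edge for 0 counts) of the 10 genes with the largest fall at 4 °C by both criteria and a mean of at least 1 CPM, with one symbol per library, the double mutant in red and wt in blue. The strains do not overlap for any of the 10 genes, and *asp-12* lies at 0.412 and 0.706 CPM in the double mutant against 22.2 and 45.4 CPM in wt.

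The 10 largest rises by the same rule were of another kind. Apart from Y17G7B.23, they were low in replicate 1 of the double mutant and several times higher in its replicate 2, and they were led by cuticle genes. *col-161* had 0.534 and 8.25 CPM in the double mutant and 0 and 0.0268 CPM in wt (edgeR adjusted p = 0.0289). That is 361 counts against 1, a ratio of 313 with a 95% counting interval of 55.9 to 12400. *col-88* had 0.315 and 9.20 CPM in the double mutant and 0 and 0.0536 CPM in wt (391 counts against 2, ratio 170, 46.7 to 1410). *col-91* had 0.218 and 4.09 CPM in the double mutant and 0 and 0.0268 CPM in wt (177 counts against 1, ratio 154, 27.2 to 6100). These intervals cover counting error only and leave out the gap between the replicates of the double mutant. *col-90*, *col-175*, *dpy-5*, *dpy-13*, *rol-1* and Y47D7A.15 had the same shape, with 1.09 to 2.84 CPM in replicate 1 and 6.86 to 13.3 CPM in replicate 2 of the double mutant, and at most 0.352 CPM in wt. *dpy-5* and *dpy-13* are collagens that set body shape. Without wt replicate 2, the calls of all of these except *col-175* were lost, and without the pairing all were.

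Y17G7B.23 (chromosome II, 11999203 to 12001524) stood apart from the other rises. It was at 13.7 and 12.9 CPM in the double mutant and 0.117 and 0.268 CPM in wt, a rise of 6.07 ± 0.31 (edgeR adjusted p = 2.89e-05, and 0.00996 without the pairing). It was also higher than in *ets-4* animals, which had 0.228 and 0.177 CPM (6.04 by the direct contrast, edgeR adjusted p = 5.5e-05). The gene lies on the same chromosome as *pqm-1*, within 1 Mb of it. Whether its rise depends on the loss of PQM-1 was not tested. Y68A4A.13, another gene with only a sequence name, had 4.29 and 2.97 CPM in the double mutant and 0.117 and 0.107 CPM in wt (4.96 ± 0.41, edgeR adjusted p = 0.000243).

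Gene lists were described by how many members were called and by their median log2 fold change. Over all genes tested the median was 0.03, with 20.9% called higher and 20.1% called lower. In RNA of whole animals, fewer cells of a type and less RNA per cell cannot be told apart. Cuticle collagens, the structural proteins of the exoskeleton, had 123 of 175 members tested, of which 64 rose and 4 fell (median 1.40). With at least 10 counts asked of each of the 4 libraries, a filter that a gene near 0 in wt cannot pass, 37 rose and 2 fell. The call of many collagens rested on single libraries: 17 rose without wt replicate 2, and 88 without replicate 1 of the double mutant. The summed level of the list was 16750 and 16200 CPM in the double mutant and 11860 and 13200 CPM in wt. *col-19*, the adult collagen used as a marker of the hypodermis, was at 1005 and 1157 CPM in the double mutant and 470 and 660 CPM in wt (0.95 ± 0.09, edgeR adjusted p = 0.000402).

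Sperm genes rose, and oocyte genes fell slightly. Of the major sperm protein genes, which code for the cytoskeletal protein of crawling sperm, 26 of 31 were tested and 24 rose (median 2.60), and of the other sperm genes 32 of the 44 tested, from 54 members, rose and 1 fell (median 2.23). Without wt replicate 2, 13 and 11 rose, and 22 of the other sperm genes rose without replicate 2 of the double mutant. The summed level of the major sperm proteins was 41 and 238.5 CPM in the double mutant and 8.20 and 35.1 CPM in wt, so replicate 1 of the double mutant was close to replicate 2 of wt. *gsp-3*, a sperm phosphatase, had 1.67 and 11.4 CPM in the double mutant and 0.293 and 1.66 CPM in wt (2.62 ± 0.35, edgeR adjusted p = 0.00164). Reads that mapped to more than one place were dropped by the authors, so the levels of the near-identical copies of the major sperm protein genes are uncertain.

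All 14 oocyte and eggshell genes fell (median -0.38), and 9 did without replicate 2 of the double mutant. *oma-1*, a zinc finger protein needed for oocyte maturation, had 379 and 325 CPM in the double mutant and 487 and 453 CPM in wt (-0.43 ± 0.05, edgeR adjusted p = 0.000851). *puf-5*, an RNA-binding translational repressor of oocytes, had 738 and 687 CPM in the double mutant and 945 and 987 CPM in wt (-0.45 ± 0.06, edgeR adjusted p = 0.00155). The germ line markers *pgl-1*, *gld-1* and *glh-1* did not pass the test (log2 fold changes of -0.01, -0.02 and 0.07), and *glp-1*, the Notch receptor of the stem cells, had -0.14 (edgeR adjusted p = 0.0495). Whether a shift in the age or brood stage of the animals moved the sperm, oocyte and collagen genes was not tested.

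All 17 genes of the list of muscle myosin and thin filament genes rose (median 0.74), and 16 did when any 1 of the 4 libraries was left out. The largest were the pharyngeal myosin heavy chains. *myo-1* had 124 and 192 CPM in the double mutant and 53.6 and 52.5 CPM in wt (1.54 ± 0.17, edgeR adjusted p = 0.0039), and *myo-2* had 116 and 170 CPM in the double mutant and 50.6 and 50.3 CPM in wt (1.47 ± 0.13, edgeR adjusted p = 0.00153). *unc-54*, the main myosin of body wall muscle, was at 1882 and 2236 CPM in the double mutant and 1139 and 1436 CPM in wt (0.67 ± 0.08, edgeR adjusted p = 0.000654). No mutant library overlapped a wt library for these genes, but the adjusted p was 0.0655 to 0.0876 without the pairing. The summed level was 7313 and 8310 CPM in the double mutant and 4727 and 5571 CPM in wt.

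Markers of other tissues moved in both directions. Of the intestine markers, *ges-1*, a gut esterase, and *ifb-2*, an intermediate filament of the gut, rose by 0.71 and 1.09. The marker *elt-2*, given below, also rose. *act-5* had 0.36 and did not pass the test, and *asp-1*, a gut protease, fell by 0.53. Of the neuron markers, *unc-31* rose by 0.56, *snb-1* fell by 0.16, and *unc-119* and *rab-3* did not pass the test. How far a change in the share of each tissue moved the other genes was not tested.

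**Figure D4:**
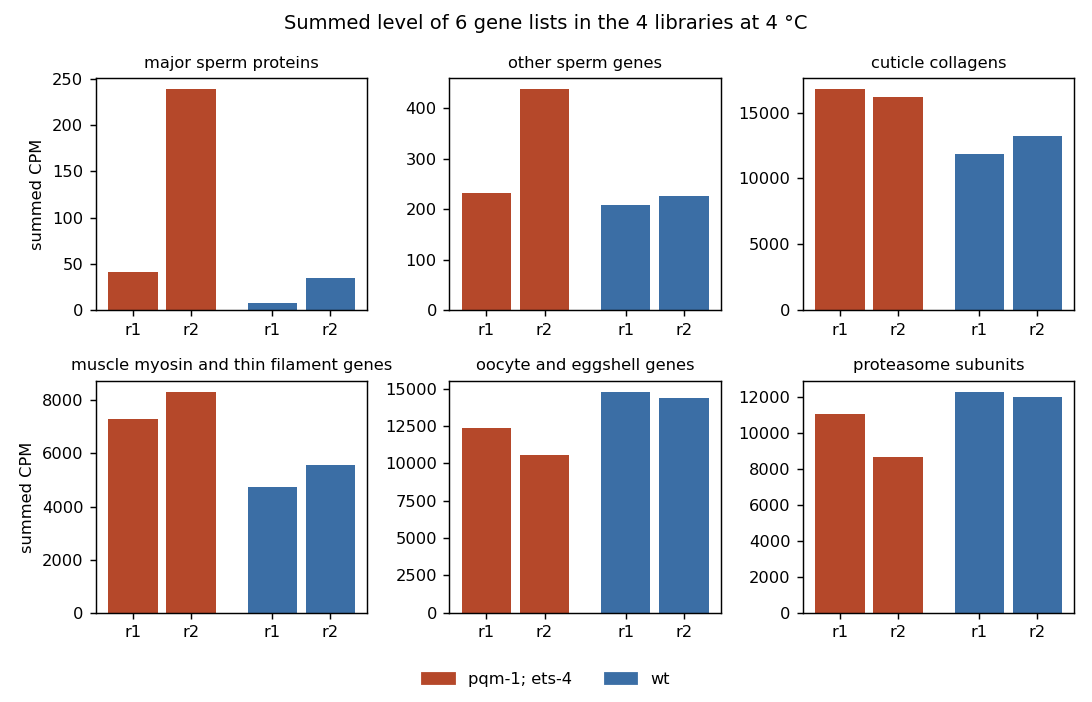
Summed level of 6 gene lists in CPM (linear axes from 0), one bar per library, the double mutant in red and wt in blue. Major sperm proteins reach 238.5 CPM in replicate 2 of the double mutant alone, whereas muscle genes are higher (7313 and 8310 CPM against 4727 and 5571 CPM) and proteasome and oocyte genes lower in both mutant libraries than in either wt library.

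Genes of protein turnover and folding fell by small amounts. Of 33 proteasome subunits, 29 fell and none rose (median -0.30, range -0.45 to -0.11), but 4 fell without replicate 2 of the double mutant and 12 without wt replicate 2. *rpn-8*, a subunit of the regulatory lid, had 356 and 289 CPM in the double mutant and 415 and 393 CPM in wt (-0.34 ± 0.06, edgeR adjusted p = 0.00429). All 7 chaperones tested of the 10 on the list of HSP70 and HSP90 proteins, which also holds the mitochondrial chaperonin gene *hsp-60*, fell (median -0.42), with 2 falling without replicate 2 of the double mutant and 1 without wt replicate 2. *hsp-4*, the endoplasmic reticulum chaperone BiP, had 975 and 423 CPM in the double mutant and 1181 and 706 CPM in wt (-0.52 ± 0.10, edgeR adjusted p = 0.00631, and 0.616 without the pairing), so that its fall was visible only within pairs. The cytosolic ribosomal proteins hardly moved, with 3 of 78 higher and a median of -0.05, although 17 were called lower without wt replicate 1.

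Lysosomal proteases split. Of 12 aspartyl proteases tested, 5 fell and 1 rose, with 3 falling without wt replicate 1 and 3 rising without replicate 2 of the double mutant. With all libraries kept, 41.7% fell and 8.33% rose, beside 20.1% and 20.9% of all genes tested. *asp-3* had 383 and 538 CPM in the double mutant and 667 and 832 CPM in wt (-0.72 ± 0.07, edgeR adjusted p = 0.000312), and *asp-13* was the one that rose. Among 10 cysteine cathepsins tested, *cpr-9* and *cpr-6* fell by 1.10 and 0.54 (20% of those tested), and 3 rose (30%). *cpr-5* was at 230 and 314 CPM in the double mutant and 137 and 146 CPM in wt (0.92 ± 0.12, edgeR adjusted p = 0.00275), and *cpr-8* rose by 1.49. Yolk protein genes, which the intestine expresses for the oocytes, had 4 of 7 members of the list lower (57.1%, median -0.46), the receptor *rme-2* among them (-0.40), while the abundant *vit-2* and *vit-6* did not pass the test (0.14 and 0.02). Without replicate 2 of the double mutant, 2 of the 7 fell.

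Of 9 fatty acid elongases, 4 fell and 1 rose (median -0.25). The shares were 44.4% lower and 11.1% higher, beside 20.1% and 20.9% of all genes tested. Besides *elo-2*, *elo-5*, which makes branched-chain fatty acids, had 18.4 and 24.3 CPM in the double mutant and 38.8 and 40.1 CPM in wt (-0.91 ± 0.10, edgeR adjusted p = 0.000628), and *elo-6*, of the same pathway, fell by 0.82. *elo-3* fell by 0.25, and *elo-8*, which rose by 1.94, lost its call without replicate 2 of either strain. Of 7 desaturases, *fat-3* and *fat-2* rose (0.49 and 0.19) and *fat-1* fell (-0.20). That is 28.6% higher and 14.3% lower, beside 20.9% and 20.1% of all genes tested. The stearoyl-CoA desaturases *fat-6* and *fat-7*, which make monounsaturated fat in the cold, did not pass the test (-0.22 and -0.43). The calls of *fat-2* and *fat-1* were lost without either library of the double mutant or without wt replicate 2.

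In fatty acid activation and beta-oxidation, 14 of 39 genes tested rose and 12 fell (median 0.05), 5 and 7 without wt replicate 2, 9 and 5 without replicate 2 of the double mutant, and 16 and 7 without its replicate 1. With all libraries kept, 35.9% of the list was called higher and 30.8% lower, beside 20.9% and 20.1% of all genes tested. *cpt-4* is a carnitine palmitoyltransferase, one of the enzymes that pass fatty acids into mitochondria. Its level was 16.1 and 18.9 CPM in the double mutant and 3.02 and 4.18 CPM in wt (2.29 ± 0.14, edgeR adjusted p = 7.61e-05, and 0.0646 without the pairing). *acdh-2*, an acyl-CoA dehydrogenase, was lower, at 2.91 and 1.34 CPM in the double mutant and 10.9 and 7.96 CPM in wt (-2.31 ± 0.49, edgeR adjusted p = 0.0158), with adjusted p of 0.232 and 0.214 without replicates 1 and 2 of the double mutant. Of 9 lipases tested, *lipl-3* and *lipl-7* rose (3.13 and 0.24) and *atgl-1*, the main triglyceride lipase, fell (-0.23), and 1 gene of this list was called without replicate 2 of either strain. Of the enzymes of trehalose, glycogen, glyoxylate and glycerol metabolism, 6 of 14 rose and 6 fell, with 1 and 1 without wt replicate 2, 3 and 3 without replicate 2 of the double mutant and 4 and 3 without wt replicate 1. With all libraries kept, 42.9% of these enzymes were called higher and 42.9% lower, and of the lipases 22.2% and 11.1%. The trehalose synthases *tps-1* and *tps-2* rose (0.34 and 0.48), and the glycogen synthase *gsy-1* and the glycogen phosphorylase *pygl-1* fell (-0.36 and -0.31).

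The iron-storage genes that the study takes up gave no call against wt. The paper reports by RT-qPCR, with more replicates than here, that *ftn-1* rises in cold *ets-4* animals and that this needs PQM-1. That claim concerns the loss of PQM-1 in *ets-4* animals, and the test against wt does not address it directly. *ftn-1*, a ferritin, was at 1.46 and 0.706 CPM in the double mutant and 0.996 and 0.188 CPM in wt (1.10 ± 0.54, edgeR adjusted p = 0.142, but 0.00372 without replicate 1 of the double mutant). *ets-4* animals had 5.6 and 1.24 CPM, and the direct contrast of the double mutant with them was -1.43 (edgeR adjusted p = 0.111). The double mutant, *ets-4* and wt each had more of it in replicate 1 than in replicate 2. *ftn-2*, the abundant ferritin, had 185 and 152 CPM in the double mutant and 156 and 135 CPM in wt (0.20 ± 0.08, edgeR adjusted p = 0.079, and 0.0135 without replicate 2 of the double mutant). *ftn-2* was lower than in *ets-4* animals, which had 216 and 217 CPM (-0.36, edgeR adjusted p = 0.0411), a call near the threshold. The paper reports by RT-qPCR that PQM-1 does not regulate *ftn-2*. Of the 7 ferritin, iron transporter and iron regulator genes tested, *fpn-1.1*, a ferroportin, and *aco-1*, an aconitase, rose by 0.47 and 0.26, the first not without wt replicate 2 and the second not without replicate 1 of the double mutant, and 3 of the 7 rose without its replicate 2.

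Other genes taken up by the study differed in how well their calls held. The study chose them, with *ftn-1* and *cpt-4*, for a rise of at least 2-fold in *ets-4* animals over these same wt libraries. Promoter binding by DAF-16 and PQM-1 was its other criterion. A rise of the double mutant over the same wt libraries is therefore partly set by that choice. *asp-13*, the aspartyl protease, was at 8.95 and 50.5 CPM in the double mutant and 2.31 and 19.8 CPM in wt (1.55 ± 0.13, edgeR adjusted p = 0.000277, and 0.528 without the pairing). It was higher in the double mutant in both pairs, but replicate 1 of the double mutant was below replicate 2 of wt. *pals-37*, of a family linked to the response to intracellular pathogens, had 1.14 and 2.31 CPM in the double mutant and 0.381 and 0.536 CPM in wt (1.86 ± 0.29, edgeR adjusted p = 0.00224). *nhr-58*, a nuclear hormone receptor, had 1.19 and 1.14 CPM in the double mutant and 0.586 and 0.617 CPM in wt (0.95 ± 0.30, edgeR adjusted p = 0.0319), a call lost without replicate 1 of either strain or without wt replicate 2.

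*fmo-2*, a flavin monooxygenase tied to longevity, and *oac-14*, an acyltransferase, did not pass the test. *fmo-2* had 144 and 49.2 CPM in the double mutant and 27.2 and 27.9 CPM in wt (1.69 ± 0.48, edgeR adjusted p = 0.0644). The wt libraries were close and the mutant libraries far apart. Leaving out either mutant library leaves a single one, whose spread the fit takes from the other strains, and edgeR's adjusted p was then 2.48e-06 without replicate 1 and 1.55e-09 without replicate 2. *oac-14* had 23.1 and 15 CPM in the double mutant and 5.36 and 8.95 CPM in wt (1.62 ± 0.89, edgeR adjusted p = 0.236).

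Of 11 textbook targets of DAF-16 tested, 3 rose and 2 fell (median 0.13), and 1 fell without either library of the double mutant. With all libraries kept, 27.3% of these targets rose and 18.2% fell, near the 20.9% and 20.1% of all genes tested. *lys-7*, a lysozyme, was at 179 and 295 CPM in the double mutant and 70.1 and 111 CPM in wt (1.37 ± 0.12, edgeR adjusted p = 0.00124). *dod-3* had 1.43 and 0.852 CPM in the double mutant and 0.0293 and 0.0268 CPM in wt (94 counts against 2, a ratio of 40.8 with a 95% counting interval of 11 to 342; edgeR adjusted p = 0.000906). *mtl-1*, a metallothionein, rose by 0.87 (edgeR adjusted p = 0.00893, and 0.102 without wt replicate 2), while *mtl-2* had 0.35 and did not pass the test. *sod-3*, the mitochondrial superoxide dismutase that often reports DAF-16 activity, was at 2.57 and 2.26 CPM in the double mutant and 2.29 and 2.12 CPM in wt (0.13, edgeR adjusted p = 0.726). Of the 8 superoxide dismutases and catalases, *sod-4* rose by 0.62 and 2 fell, neither of them called without wt replicate 2.

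In the insulin pathway itself, *age-1*, the PI3 kinase, and *akt-1* fell by 0.28 and 0.21, and *akt-2* rose by 0.68. *akt-1* lost its call without either library of the double mutant or without wt replicate 2. Of 27 insulin-like peptide genes tested, *daf-28* and *ins-7* rose (1.25 and 0.94), and 1 of the list did without either wt library. Of 11 intestinal transcription factor genes, counting *rege-1*, 4 rose, 2 without either library of the double mutant and 1 without wt replicate 2, and those that fell were *ets-4* and *pqm-1*. *elt-7* rose by 0.82, and *elt-2*, the main GATA factor of the gut, had 5.68 and 8.74 CPM in the double mutant and 2.90 and 3.32 CPM in wt (1.17 ± 0.29, edgeR adjusted p = 0.0172), a call lost without replicate 1 of the double mutant or without wt replicate 2. Of 10 small heat shock genes tested, *hsp-12.2* rose by 1.00 and *hsp-25* by 0.37, and *sip-1* fell by 0.26. That is 20% higher and 10% lower, neither above the 20.9% and 20.1% of all genes tested. For the hypoxia and hydrogen sulfide genes that follow, 25% rose and 0% fell. Of 8 genes of the hypoxia and hydrogen sulfide response, *cysl-1* and *nhr-57* rose (0.57 and 0.89), 1 of them without wt replicate 2.

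Of 113 C-type lectin genes tested, from 240, 21 rose and 16 fell (18.6% and 14.2%, neither above the 20.9% and 20.1% of all genes tested), with 8 and 7 without wt replicate 2 and 10 falling without replicate 2 of the double mutant. Of 31 lysozymes and saposin-like genes tested, 11 rose (35.5%) and 6 fell (19.4%), with 2 rising without wt replicate 2. *clec-86* rose by 1.54 and *clec-62* fell by 1.09. Of 6 CUB-like *dod* genes tested, which respond to infection and insulin signalling, 3 rose and 1 fell, and 1 rose without wt replicate 2. *dod-24* had 14 and 16.1 CPM in the double mutant and 6.86 and 6.59 CPM in wt (1.15 ± 0.21, edgeR adjusted p = 0.00591). With all libraries kept, 50% of these *dod* genes rose and 16.7% fell. For the *pals* genes that follow, 31.6% rose and 0% fell, beside the 20.9% and 20.1% of all genes tested. Of 19 *pals* genes tested, 6 rose (median 0.50), 3 without replicate 2 of the double mutant and 2 without wt replicate 2. *nlp-31*, an antimicrobial peptide gene of the epidermis from the neuropeptide list, was at 52.2 and 31.9 CPM in the double mutant and 107 and 78.5 CPM in wt (-1.18 ± 0.10, edgeR adjusted p = 0.000539), and *nlp-28* of the same list fell by 1.19.

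Of 41 glutathione transferases tested, 10 rose (24.4%, near the 20.9% of all genes) and 1 fell (median 0.30), with 4 rising without wt replicate 2 and 4 falling without replicate 1 of the double mutant. Of 59 UDP-glucuronosyltransferases, 8 rose (13.6%) and 3 fell, and 2 rose without wt replicate 2. Of 51 cytochrome P450 genes, 6 rose (11.8%) and 8 fell (median 0.06), with 2 and 4 without wt replicate 2, and 4 and 5 without wt replicate 1 or without replicate 2 of the double mutant. *gsto-1* and *ugt-54* rose by 2.53 and 1.47, and *cyp-13A8* and *ugt-53* fell by 2.38 and 2.15.

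Of 175 nuclear hormone receptor genes tested, from 268, 50 rose (28.6%, beside 20.9% of all genes) and 9 fell (median 0.35), with 17 and 1 without wt replicate 2 and 44 rising and none falling without replicate 2 of the double mutant. Of 97 neuropeptide genes, 26 rose (26.8%) and 5 fell (median 0.23), with 12 rising without replicate 2 of the double mutant and 5 without wt replicate 2. The neuropeptide *flp-13*, which acts in stress-induced sleep, rose by 0.69, and *flp-6* fell by 0.72. Of 213 F-box, MATH and BTB genes tested, 45 rose (21.1%, near the share of all genes) and 13 fell, with 11 and 6 without wt replicate 2, and 8 falling without wt replicate 1 or without replicate 2 of the double mutant. Of 1269 chemoreceptor genes only 55 had enough counts, and 11 of those rose (20%), 5 without wt replicate 2. Of 26 histone genes tested, 3 rose and 7 fell (median -0.26), with 1 and 1 without wt replicate 2 and 2 and 4 without replicate 2 of the double mutant. With all libraries kept, 11.5% of the histone genes rose and 26.9% fell, beside 20.9% and 20.1% of all genes tested. Most histone mRNAs carry no poly-A tail, so a poly-A library records them poorly.

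**Figure D5:**
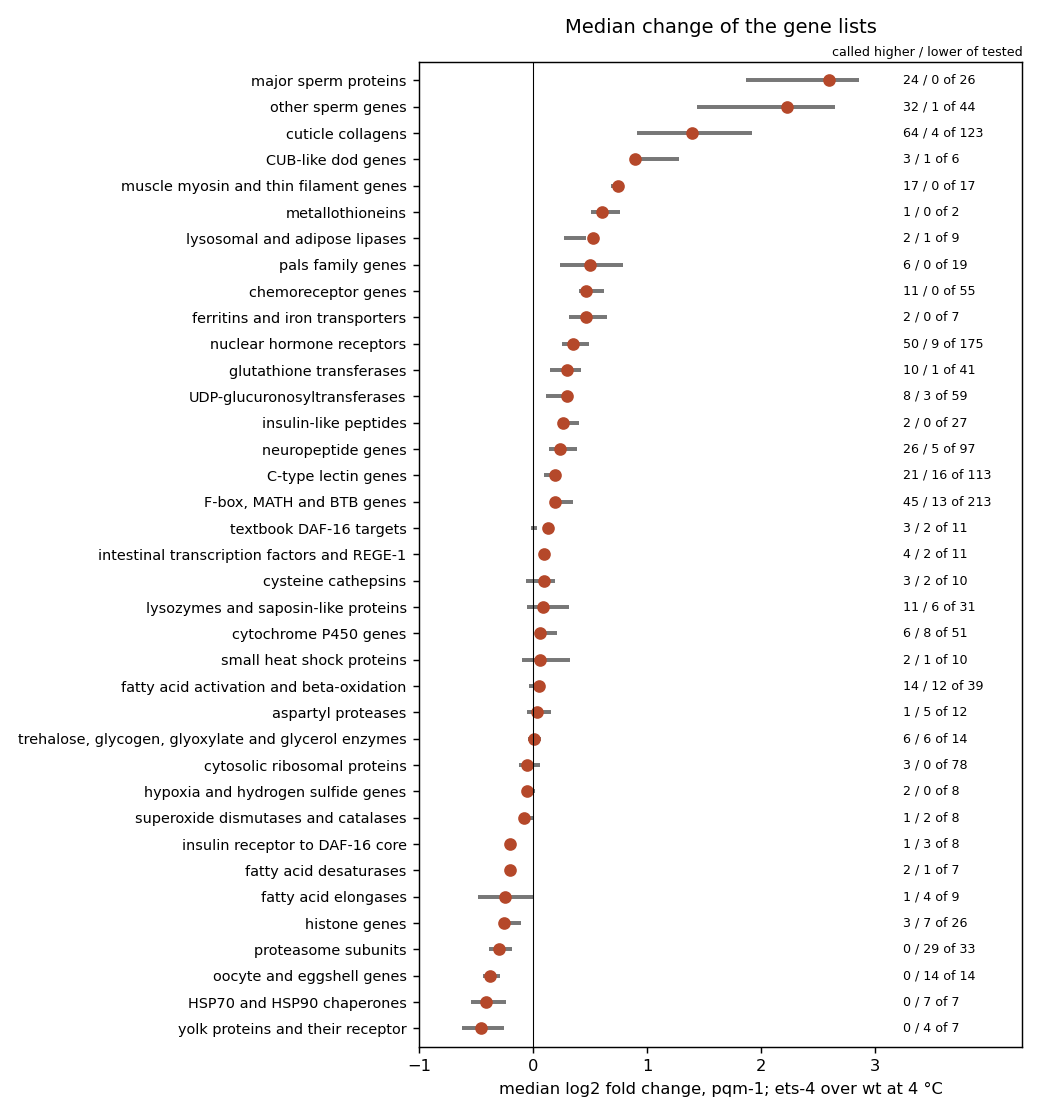
Median log2 fold change of the double mutant over wt at 4 °C for the 37 gene lists (points), with bars from the lowest to the highest median when each of the 4 libraries is left out in turn and, at the right, the members called higher and lower of those tested. Sperm genes (2.60 and 2.23) and collagens (1.40) lie at the top with wide bars, muscle genes at 0.74 have a narrow one, and yolk, chaperone, oocyte and proteasome genes lie lowest, between -0.46 and -0.30.

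The *ets-4* single mutant allows a direct contrast with the double mutant at 4 °C. The double mutant differed from *ets-4* in 554 genes upwards (3.80% of those tested) and 306 downwards (2.10%). Leaving out *ets-4* replicate 2 gave 35 and 36, leaving out *ets-4* replicate 1 gave 127 and 64, and leaving out replicate 1 of the double mutant gave 1623 and 666. Of the 686 genes higher than in wt by both criteria, 296 were also higher than in *ets-4* and 1 was lower. Of the 49 lower genes, 20 were also lower than in *ets-4*. The contrasts share the libraries of the double mutant, so these counts are not independent of the choice of genes. The median difference from wt of the 686 genes was 2.57 in the double mutant, 1.01 in *ets-4* and 1.96 in *daf-16; ets-4* animals. All of these share the wt libraries. The genes were chosen for high values in the double mutant, so its median cannot be ranked against those of the other strains.

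Some genes had moved in *ets-4* as far as in the double mutant. *asp-12* was at 0.597 and 0.887 CPM in *ets-4* animals, close to the 0.412 and 0.706 CPM of the double mutant (-0.40, edgeR adjusted p = 0.42). *spp-3* was at 32.8 and 29.2 CPM in *ets-4* animals, again level with the double mutant (0.01, edgeR adjusted p = 0.98). For others *ets-4* animals were near wt and the double mutant stood apart from both. Values of *daf-16; ets-4* animals are not given for these genes. *cdk-5* was at 47.8 and 47.0 CPM in *ets-4* animals, and the double mutant was lower by the direct contrast (-1.39, edgeR adjusted p = 4.68e-05). *ucp-4* was at 19.6 and 18.7 CPM there (-1.82, edgeR adjusted p = 6.51e-05), and *cls-3* at 26.1 and 26.2 CPM (1.79, edgeR adjusted p = 0.00468). *cpt-4*, at 7.96 and 11.2 CPM in *ets-4* animals, lay between wt and the double mutant (0.89, edgeR adjusted p = 0.0103).

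A few protease genes were closer to wt in the double mutant than in *ets-4*. *cpr-9* had 218 and 312 CPM in the double mutant, 151 and 164 CPM in *ets-4* and 495 and 629 CPM in wt, and the double mutant was above *ets-4* by 0.74 (edgeR adjusted p = 0.0121). *asp-1* had 352 and 536 CPM in the double mutant, 185 and 353 CPM in *ets-4* and 476 and 815 CPM in wt (0.77 above *ets-4*, edgeR adjusted p = 0.00864). Y102A5C.36 went the other way from *ets-4*: it had 0 and 0.0243 CPM in the double mutant, 4.21 and 6.18 CPM in *ets-4* and 0.762 and 0.992 CPM in wt. Against wt that is 1 count and 63 counts, a ratio of 0.0138 with a 95% counting interval of 0.000343 to 0.0796, and edgeR's adjusted p for the contrast with *ets-4* was 5.5e-05.

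The same strains at 20 °C bear on whether the differences belong to the cold. The level of *ets-4* puts the labels of the 20 °C libraries in doubt. This transcript, low in the mutant at 4 °C, was at 109 and 196 CPM in the libraries labelled as the double mutant at 20 °C. It was at 25.8 and 26.1 CPM in those labelled wt. Whether libraries had been exchanged was not tested. Values from these libraries are given with that reservation. Of the 686 genes higher at 4 °C by both criteria, 595 were also called higher in the libraries labelled as the double mutant at 20 °C (background 28.1% of 15775 genes tested). Of the 49 lower genes, 27 were called lower there (background 24.6%). By the labels as they stand, the median log2 difference from wt at 20 °C was 2.88 for the 686 genes and -1.13 for the 49. Both medians had the same sign as at 4 °C. The difference between temperatures itself was called for 73 genes in the direction of a higher value at 4 °C (0.463% of 15775) and 74 in the other (0.469%). The counts were 14 and 44 without wt replicate 2 at 4 °C and 30 and 33 without wt replicate 1. Without the pairing edgeR called 0 genes in either direction, with 834 at an unadjusted p under 0.05, while DESeq2 with the pairing called 127 and 187.

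The directions given here take the labels of the 20 °C libraries as they stand. All 17 muscle genes were called higher than wt in those libraries, as they were at 4 °C. The difference in *elo-2* was -1.48 at 4 °C and -0.16 in the libraries labelled 20 °C (interaction -1.29 ± 0.12, edgeR adjusted p = 0.00185). *faah-2* was lower at 4 °C and slightly higher in the libraries labelled 20 °C (0.30; interaction -1.03 ± 0.13, edgeR adjusted p = 0.00832). The transthyretin-related gene *ttr-31*, picked after its values were seen, had 11 and 6.18 CPM in the double mutant and 49.7 and 20.8 CPM in wt at 4 °C (-1.99 ± 0.13, edgeR adjusted p = 0.000121), against 0.39 in the libraries labelled 20 °C (interaction -2.36 ± 0.17, edgeR adjusted p = 0.000343). By contrast the change in *cdk-5* was -1.56 at 4 °C and -1.45 in the libraries labelled 20 °C (interaction edgeR adjusted p = 0.696), and that of *ucp-4* was -1.95 and -2.13.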

How the data were processed

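The authors prepared stranded poly-A libraries and mapped single-end reads to the WBcel235 genome with STAR, keeping reads that mapped to 1 place, and deposited 1 table of whole-number read counts over the exons of protein-coding genes (20447 genes, 16 libraries). Whether counting used the strand and the annotation release were not given in the sources used here, so overlapping and antisense genes are uncertain. Coordinates were taken from Ensembl release 115 of WBcel235, in which 20159 of the gene IDs (98.6%) were found.

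Samples were grouped by the genotype and temperature in their labels. Counts were analysed in R 4.3.3 with edgeR 4.0.16: filterByExpr, TMM, and the robust quasi-likelihood test over the 8 libraries at 4 °C with strain and replicate number as terms. Benjamini-Hochberg adjusted p-values under 0.05 over all 14571 genes tested were called. The same fit gave the contrast with *ets-4*, and a fit over 16 libraries gave the difference between 4 °C and 20 °C. CPM values use TMM sizes over all 16 libraries, and SEs are the absolute log2 fold change over the square root of F. The 2-fold rule follows the study's methods (library totals scaled to their mean at 4 °C, pseudocount 8, both same-numbered pairs). Pairing by replicate number comes from the labels and the study's rule. Deviations from strain means correlated at 0.532 to 0.720 over the 6 pairs of strains (14571 genes). Replicates were described as biologically separate. In fits with the replicate term, p-values measure the spread left after that term, estimated over all strains in the fit.

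Named genes were the mutated genes and *daf-16*, the 10 largest rises and falls by both criteria with a mean of at least 1 CPM, the genes the study singles out, and up to 4 called members per gene list by smallest adjusted p. The genes called with and without the block, and other genes, were named after their values were seen. The members of the lists and these tests were chosen with earlier results of these data known. Alternatives were RLE factors, library totals, 2 other count filters, DESeq2 1.42.0, fits over 4 or 16 libraries, glmTreat at 1.5-fold, each library left out, and for the 2-fold rule other pseudocounts and thresholds, and, chosen after seeing the data, TMM without sperm and collagen genes. Counting intervals cover 95% and counting error only. No sequences were used. The result for 1 gene of the insulin pathway list is not reported here.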

Additional observations from a re-analysis of the deposited data

Results flagged for a closer look

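For 14 of the 231 genes followed through every setting, the difference between the double mutant and wt depended on temperature by edgeR's interaction test. The test takes the labels of the 20 °C libraries as they stand, and the level of *ets-4* puts these labels in doubt. The interactions (difference at 4 °C minus difference at 20 °C, log2) were negative for *ets-4* (-5.06), C31B8.7 (-2.60), *ttr-31* (-2.36), ZK6.8 (-2.28), F27E5.7 (-1.69), *elo-2* (-1.29), *nlp-31* (-1.24), *acy-4* (-1.09) and *faah-2* (-1.03). They were positive for *ist-1* (0.89), C01C10.2 (0.88), *asp-13* (0.82), F45D3.3 (0.70) and F36G3.1 (0.67).

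The *ets-4* value stands out by its size, the largest of these interactions. Its difference from wt was -2.62 at 4 °C but positive among the 20 °C libraries by their labels (2.46, edgeR adjusted p = 0.00061). The sign turned for other genes as well, *faah-2*, *ttr-31* and ZK6.8 among them, with smaller differences at 20 °C. ZK6.8, a gene with only a sequence name that was picked after its values were seen, had 7.5 and 4.21 CPM in the double mutant and 28.4 and 20.9 CPM in wt at 4 °C (-2.13 ± 0.14, edgeR adjusted p = 0.000154), against 0.18 in the libraries labelled 20 °C.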

How the results depend on the processing

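No named gene that was called turned its direction under any of the 14 alternative settings in which it could be tested; the stricter count filter and the fit over 4 libraries tested fewer of them. A strain left with 1 library was assumed to vary like the others. The replicate block mattered most. Without it the calls against wt at 4 °C were 30 higher and 17 lower in place of 3049 and 2930, those against *ets-4* 3 and 4 in place of 554 and 306, and those of the difference between temperatures 0% and 0% of genes in place of 0.463% and 0.469%, and 32 of the 37 gene lists had no member called. Against a 1.5-fold change, 789 genes were higher and 66 lower than wt. Library totals gave 1604 lower, the 4 libraries alone 1466 and all 16 libraries 1879. Leaving out 1 library gave 1085 to 3384 higher and 1050 to 2457 lower than wt, 35 to 1623 and 36 to 666 than *ets-4*, and 0.0862% to 0.259% and 0.203% to 0.511% of genes for the difference between temperatures. For that difference RLE gave 0.754% lower and DESeq2 0.996% higher and 1.47% lower. The 2-fold rule gave 697 genes higher and 53 lower with a pseudocount of 8, 1592 and 131 with 1, 252 and 27 with 32, 2015 and 170 at 1.5-fold, 216 and 16 at 3-fold, and 247 to 2172 and 68 to 79 with 1 library left out. Of 216 named genes called, 55 lost the call without wt replicate 2, and 17 to 24 without any other single library. DESeq2 lost 9. The causes were not tested. Depth limits the genes near 0 in wt: of the 686 genes higher by both criteria, 337 were still called with at least 10 counts in each of the 4 libraries. With 2 libraries per strain, a missed call does not show that strains were alike.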

Other observations

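Calls were spread unevenly over the chromosomes. On X, 24.8% of 2077 genes tested were higher in the double mutant than in wt at 4 °C and 12% were lower. On V, 23.9% of 2828 were higher and 16.4% lower. On I, 17.8% of 2344 were higher and 27.3% lower, and on III 15.6% of 2275 and 25.8%. Within 2 Mb of *pqm-1*, 20.1% of 670 genes were higher and 21.9% lower, beside 20.6% and 19.3% of the rest of chromosome II. Within 0.5 Mb of it, 16.5% of 182 genes were higher and 25.3% lower, beside 20.8% and 19.6% of the rest. Within 2 Mb of *ets-4*, 26.1% of 528 genes were higher and 12.7% lower, beside 24.4% and 11.8% of the rest of X. Within 0.5 Mb of it, 33.8% of 139 genes were higher and 6.47% lower, beside 24.2% and 12.4% of the rest. Genes of a chromosome are not independent, and no test was run.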
